A study of Mus musculus with 24 samples.

Results

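The matrix metalloproteinases Mmp2, Mmp3, Mmp9, Mmp10, Mmp12, Mmp13 and Mmp14 and the tissue inhibitors of metalloproteinases Timp1, Timp2 and Timp3 were followed across CD45+ cells enriched from EMT6-hHER2 tumors. They were taken by symbol from a list of names, drawn up with results of these data in view, among them the low level of Mmp10 with T-PNU. All 10 were found among the 16996 genes with values. EMT6-hHER2 is a single-cell-sorted clone of a murine breast cancer line that carries human HER2, and it was grown in the mammary fat pad of wild-type female Balb/c mice, 10 to 12 weeks old by the labels. When tumors reached 80 mm3, mice were left untreated or received 1 intravenous dose of an agent: trastuzumab, the naked anti-HER2 antibody, at 20 mg/kg, T-DM1, trastuzumab carrying the microtubule toxin DM1, at 15 mg/kg, or T-PNU, trastuzumab carrying a derivative of the anthracycline PNU-159682, at 1 mg/kg. Tumors were taken on day 10, with 1 bulk library per mouse, 6 mice per group and 24 libraries in all. By the study's methods, tumors of the T-PNU group were then smaller than at treatment. In its efficacy experiments trastuzumab and T-DM1 did not prevent tumor growth. Tumor size at harvest may therefore differ between T-PNU and the other groups, and it cannot be told apart from treatment. The doses differed between the agents, so a difference between groups is one between these treatments as given.

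Matrix metalloproteinases (MMPs) are zinc-dependent proteases that cut extracellular matrix, growth factors and chemokines, and most are secreted as inactive proenzymes. The tissue inhibitors of metalloproteinases (TIMPs) block the active site, and TIMP2 also helps the membrane-bound MMP14 to activate pro-MMP2. In tumors MMPs are made by fibroblasts, tumor cells, macrophages and neutrophils, and markers of these cells are therefore given beside the results.

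Values were normalized expression on a log2 scale as deposited, so a difference of 1 is read as a 2-fold change. The transformation behind the values is not named in the sources used here. Folds therefore hold for the deposited values and may differ from those of read counts. Library medians lay between 8.73 and 8.87, and read depth was unknown. Ptprc, which encodes CD45, averaged 14.7, without correction for gene length here and in the next values. Genes listed as cell type markers had values too: the fibroblast collagen gene Col1a2 averaged 15.2, the epithelial keratin gene Krt8 13.0 and the macrophage gene Lyz2 17.5. Pecam1, the highest of the endothelial list, averaged 11.4 and is also expressed by leukocytes. The study reports high CD45+ purity by flow cytometry after enrichment. The lowest gene of each of the lists was Fap (7.12), Krt5 (4.04), Ccr2 (12.5), Tek (6.20), Ly6g (4.32) among neutrophil markers, Cd3e (8.97) among T cell markers and Cr2 (7.69) among B cell markers. The highest genes of these last 3 lists were S100a9 (14.0), Cd2 (10.3) and Cd79a (9.83). In bulk RNA, fewer cells of a type and less RNA per cell cannot be told apart. The study's heatmaps omit 4 libraries, B1 and C1 of the untreated and B3 and E2 of the trastuzumab group. They are included here, and values without them are given beside those counts and calls that changed. Each group carries its own run of numbers in the column headers, which do not say what is numbered. This numbering and treatment cannot be told apart in any comparison.

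Mmp13, Mmp12, Mmp3 and Mmp10 lie in this order in a cluster of MMP genes on chromosome 9 (GRCm38), Mmp13 at 7272514 to 7283331, Mmp12 at 7344381 to 7369499, Mmp3 at 7445822 to 7455975 and Mmp10 at 7502352 to 7510240, all on the plus strand. The starts of Mmp3 and Mmp10 are 56.5 kb apart. The other members lie on separate chromosomes: Mmp2 on chromosome 8 (92827291 to 92853420), Mmp9 on 2 (164940780 to 164955850), Mmp14 on 14 (54431612 to 54445364), Timp1 on X (20870166 to 20874735), Timp2 on the minus strand of 11 (118301069 to 118355740) and Timp3 on 10 (86300372 to 86349506). The 3' end of Mmp12 overlaps Mmp1b on the opposite strand, by 157 exonic bases, and reads were counted by strand. Timp1 and Timp3 lie within Syn1 and Syn3, on the opposite strand, and Timp2 shares 0 exonic bases with the overlapping gene Cep295nl.

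The 100 bases before the start site are shown for the 4 cluster genes, since Mmp3 and Mmp10 had similar differences between T-PNU and T-DM1 and those of Mmp12 and Mmp13 were smaller. They are RefSeq promoter sequences on GRCm38.p6, and capitals mark the AP-1 motif TGANTCA, the element bound by Fos and Jun proteins.
Mmp3, chr9:7445722-7445821, plus strand: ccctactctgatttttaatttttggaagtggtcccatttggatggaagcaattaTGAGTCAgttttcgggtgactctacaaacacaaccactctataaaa
Mmp10, chr9:7502242-7502341, plus strand: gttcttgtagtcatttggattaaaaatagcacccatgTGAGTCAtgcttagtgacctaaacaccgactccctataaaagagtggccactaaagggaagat
Mmp12, second of 2 start sites, chr9:7347274-7347373, plus strand: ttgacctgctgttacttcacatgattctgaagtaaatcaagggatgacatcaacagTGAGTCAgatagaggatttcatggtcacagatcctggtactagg
Mmp13, chr9:7272414-7272513, plus strand: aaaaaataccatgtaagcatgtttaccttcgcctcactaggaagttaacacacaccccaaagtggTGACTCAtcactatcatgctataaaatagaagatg

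The motif, which reads as the same pattern on both strands, began 46, 63, 44 and 35 bases before the start in Mmp3, Mmp10, Mmp12 and Mmp13, in that order, and was absent from the 250 bases before the first Mmp12 start. It was present in 6.75% of the 32851 promoters searched over the same length. The TATA box letters TATAAA stood in the windows of Mmp3, Mmp10 and Mmp13 and in 12.4% of all promoters. Both strands were searched, and matches of different motifs did not overlap. The Ets motif AGGAAG was found before Mmp3, Mmp12, Mmp13, Mmp14, Timp1 and Timp3 and in 29.5% of all promoters. No AP-1 match was found before Mmp14, Timp1, Timp2 or Timp3. Sequences of Mmp2 and Mmp9 were not used here. The 4 cluster genes share the AP-1 letters, and their differences between groups, given next, were of unlike size.

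Mmp3 and Mmp10 encode stromelysins, proteases of broad substrate range that also activate other pro-MMPs. Mmp3 lay between 7.63 and 9.56 in the T-PNU libraries (median 9.05) and between 9.91 and 10.69 in the T-DM1 libraries (median 10.07). Every T-PNU value was below every T-DM1 value. Untreated libraries ran from 8.37 to 10.18 (median 9.63) and trastuzumab libraries from 9.10 to 10.23 (median 9.91). Mmp3 was 2.43-fold lower with T-PNU than with T-DM1, a log2 difference of -1.28 (standard error 0.30, limma adjusted p = 0.00494).

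Mmp10 was already known to stand among the genes with the lowest T-PNU minus untreated differences, so its T-PNU differences are a description without a test. Its T-PNU values ran from 7.37 to 9.14 (median 8.19), against 7.90 to 10.28 untreated (median 9.43), 8.14 to 10.34 with trastuzumab (median 9.76) and 9.02 to 9.94 with T-DM1 (median 9.55). The log2 difference of T-PNU was -0.98 from untreated, -1.20 from trastuzumab and -1.26 from T-DM1, and 5 of the 6 T-PNU values lay below every T-DM1 value. The T-PNU libraries A2 and G1, which the study marks as low-responding by criteria not given in the sources used here, held the highest Mmp10 values of that group, 9.14 and 8.89. Among the untreated and trastuzumab libraries the lowest were C1 and E2, at 7.90 and 8.14, both omitted from the heatmaps. Without the 4 omitted libraries the differences from untreated and trastuzumab were -1.41 and -1.69. T-DM1 and untreated libraries did not differ detectably in Mmp10 (log2 difference 0.28, 95% interval -0.49 to 1.04, limma adjusted p = 0.705).

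**Figure D1:**
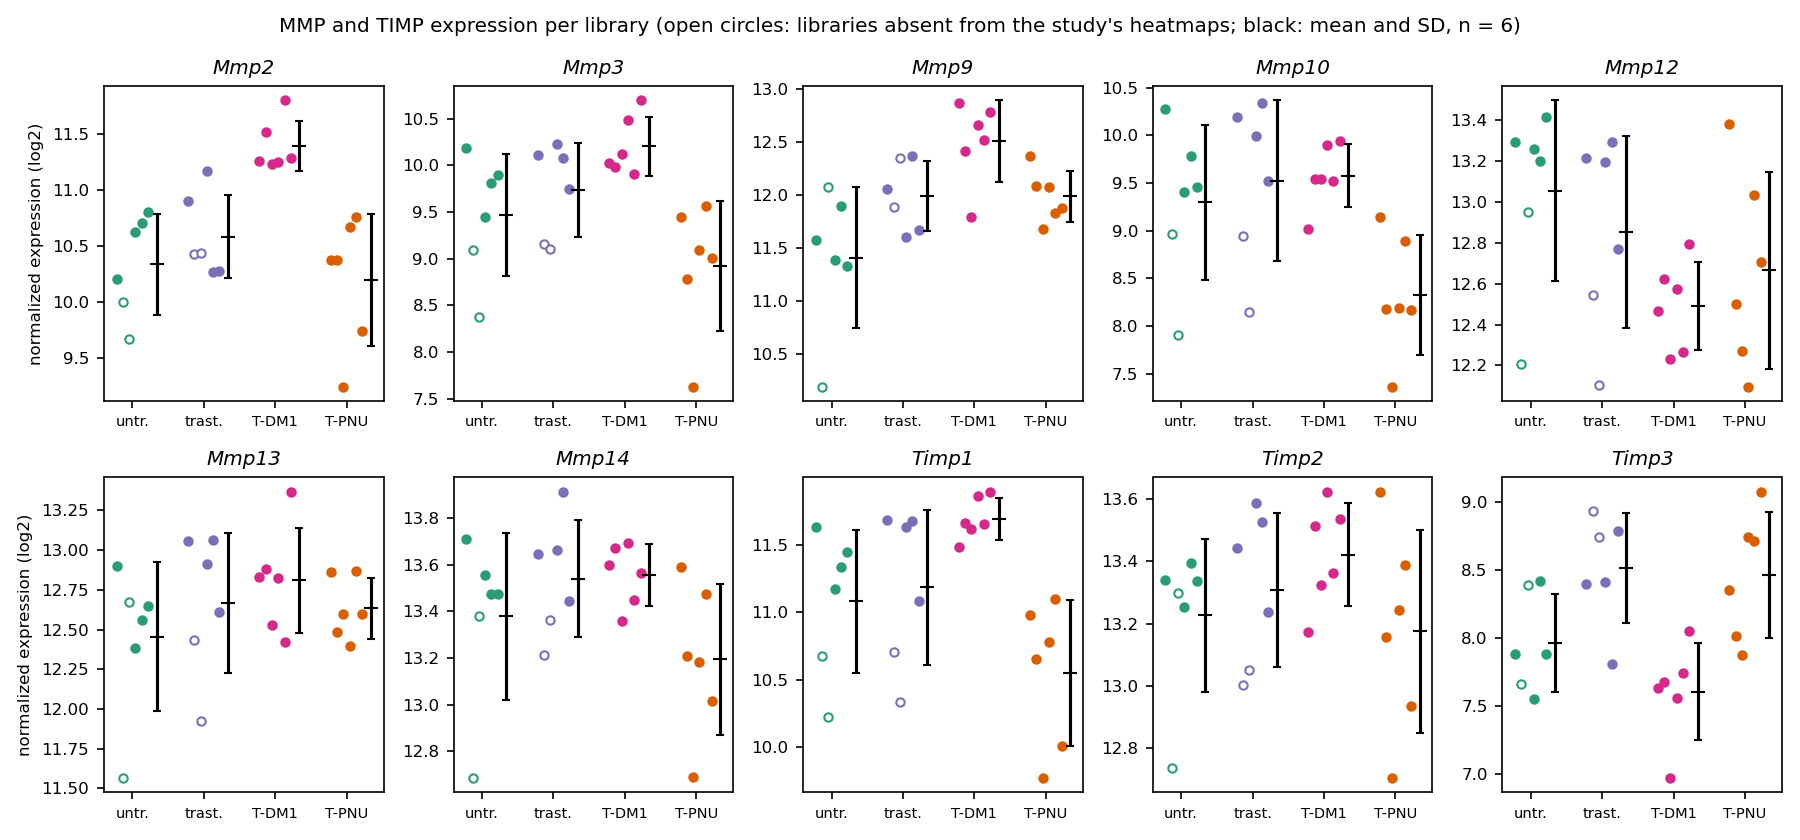
Normalized expression (log2, vertical axis) of each MMP and TIMP gene in 6 untreated, 6 trastuzumab, 6 T-DM1 and 6 T-PNU libraries (circles), with the mean and SD of each group in black. Mmp2, Mmp3 and Timp1 values of T-PNU libraries all lay below those of T-DM1 libraries, and the 4 open circles are libraries that the study's heatmaps omit.

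The gelatinases Mmp2 and Mmp9, which cut denatured collagen and basement membrane, were highest with T-DM1. Mmp2 lay between 11.23 and 11.80 in T-DM1 libraries (median 11.27), between 9.67 and 10.80 in untreated ones (median 10.41), between 10.27 and 11.17 with trastuzumab (median 10.43) and between 9.24 and 10.76 with T-PNU (median 10.38). The T-DM1 values stood above those of the 18 other libraries. Mmp2 was 2.29-fold lower with T-PNU than with T-DM1 (log2 difference -1.20, standard error 0.23, limma adjusted p = 0.00195). It was 2.08-fold higher with T-DM1 than untreated (log2 difference 1.06, standard error 0.23, limma adjusted p = 0.0120). That call was lost without the 4 omitted libraries (0.81, adjusted p = 0.0906). Against trastuzumab the T-DM1 difference was 0.81 and did not pass (limma adjusted p = 0.104).

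Mmp9 ran from 11.79 to 12.86 with T-DM1 (median 12.59), from 10.19 to 12.07 untreated (median 11.48), from 11.60 to 12.36 with trastuzumab (median 11.97) and from 11.67 to 12.37 with T-PNU (median 11.97). It was 2.14-fold higher with T-DM1 than untreated (log2 difference 1.10, standard error 0.24, limma adjusted p = 0.0105), with 5 of 6 T-DM1 values above all untreated values, and passed without the omitted libraries too (0.96, adjusted p = 0.0176). Mmp9 had a log2 difference of -0.52 between T-PNU and T-DM1 (95% interval -1.01 to -0.03, adjusted p = 0.0948), which passed when the omitted libraries were left out of the shared estimate of spread (adjusted p = 0.0202). Trastuzumab and T-PNU differed by -0.0017 (95% interval -0.49 to 0.49).

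Mmp12, the macrophage metalloelastase, and Mmp13, a collagenase, varied less over the libraries, with SDs of 0.44 and 0.37 against 0.57 for Mmp9 and 0.62 for Mmp2. Mmp12 lay between 12.10 and 13.42 over all 24 libraries, with means of 13.06 untreated, 12.85 with trastuzumab, 12.67 with T-PNU and 12.49 with T-DM1. The T-DM1 difference from untreated was -0.56 (95% interval -1.03 to -0.09, limma adjusted p = 0.132). It passed without the omitted libraries (-0.80, adjusted p = 0.0364) or without untreated B1 alone (-0.73, adjusted p = 0.0416). Without T-DM1 E3 the adjusted p was 0.248. Mmp13 had means from 12.46 untreated to 12.81 with T-DM1, and 0 of the tested differences passed. Between T-PNU and T-DM1, Mmp12 differed by 0.17 (95% interval -0.29 to 0.64) and Mmp13 by -0.18 (95% interval -0.60 to 0.25), so that 2 of the 4 cluster genes showed no detectable difference where Mmp3 was 2.43-fold lower.

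Mmp14 encodes the membrane-type MMP that activates pro-MMP2. It was expressed at a mean of 13.42 and had the second smallest spread over the 24 libraries, an SD of 0.30. T-PNU values ran from 12.69 to 13.59 (median 13.20) and T-DM1 values from 13.36 to 13.70 (median 13.58). The log2 difference between them was -0.36 (95% interval -0.68 to -0.04) with an adjusted p of 0.0774, and 0.0215 without the omitted libraries.

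Among the inhibitors, Timp1 was lower and Timp3 higher with T-PNU than with T-DM1. Timp1 lay between 9.77 and 11.10 with T-PNU (median 10.72), between 11.48 and 11.89 with T-DM1 (median 11.65), between 10.23 and 11.63 untreated (median 11.25) and between 10.34 and 11.68 with trastuzumab (median 11.35). T-PNU and T-DM1 values did not overlap. Timp1 was 2.21-fold lower with T-PNU than with T-DM1 (log2 difference -1.14, standard error 0.26, limma adjusted p = 0.00408). Centred on its own mean, Timp1 differed from Mmp3 by a root mean square of 0.23 over the 24 libraries.

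Timp3, which binds to the extracellular matrix and also inhibits ADAM proteases, ran from 7.87 to 9.08 with T-PNU (median 8.54) and from 6.97 to 8.06 with T-DM1 (median 7.66). Untreated libraries ran from 7.55 to 8.42 (median 7.89) and trastuzumab libraries from 7.81 to 8.93 (median 8.58). Of the T-PNU values, 4 of 6 lay above every T-DM1 value. Timp3 was 1.81-fold higher with T-PNU than with T-DM1 (log2 difference 0.86, standard error 0.22, limma adjusted p = 0.00739). The T-DM1 difference from trastuzumab was -0.91, which missed the threshold (limma adjusted p = 0.0549). It passed without trastuzumab G2 (0.0171) or T-DM1 H3 (0.0413), and the adjusted p was 0.149 without T-DM1 E3. Without the 4 omitted libraries the difference was -0.74 (adjusted p = 0.164).

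Timp2, whose product pairs with MMP14 and MMP2, varied least, with an SD of 0.25 over all libraries and a T-PNU minus T-DM1 difference of -0.25 (95% interval -0.54 to 0.04, limma adjusted p = 0.180). Timp2 and Mmp14 were the closest pair among the members, with a root mean square difference of 0.14 after centring.

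**Figure D2:**
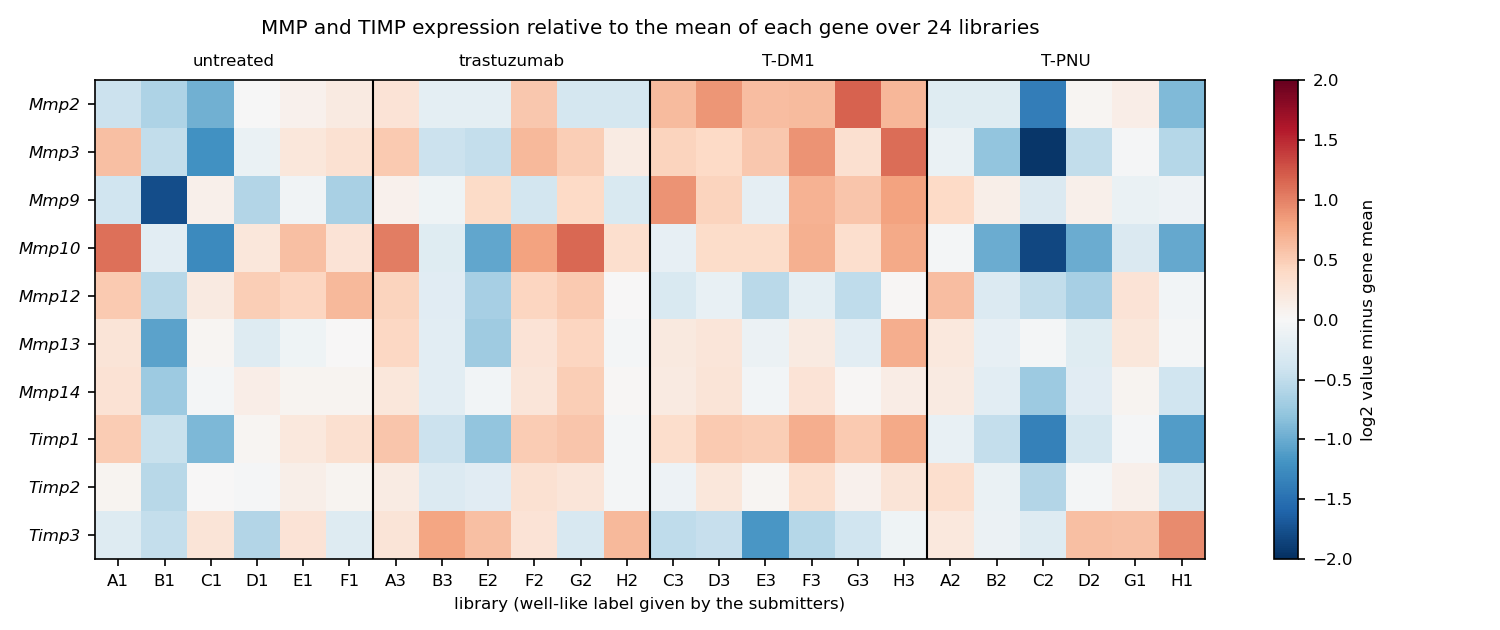
Log2 value of each member minus its mean over the 24 libraries (color scale) for the libraries on the horizontal axis, grouped by treatment. T-PNU libraries C2 and H1 and untreated library B1 were each low for 6 members and T-DM1 library H3 was high for 6, counted among the 4 lowest or 4 highest values of each gene.

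Compared per kilobase of exon, Timp2 (11.3), Timp1 (11.3), Mmp13 (11.2) and Mmp14 (10.8) had the highest mean log2 levels. Mmp9 (10.1) and Mmp12 (9.91) came next, followed by Mmp2 (8.87), Mmp3 (8.73) and Mmp10 (8.40), and Timp3 was lowest at 5.11. These levels subtract the log2 exon length in kb from the log2 value. The length merges all annotated exons of a gene, and was 7237 bases for Mmp12 and 8144 for Timp3. The order depends on this choice, since a shorter main transcript would give a higher level. The order Timp2, Timp1 and Mmp13 spans less than the SD of Timp1 over the libraries (0.61), and Mmp2, Mmp3 and Mmp10 also lie within the SD of Mmp3 (0.70).

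Across comparisons, called genes were those with a limma adjusted p under 0.05. Between T-PNU and T-DM1, 3 of 9 tested members were lower and 1 was higher, where 29.8% of all genes were called, 2111 higher and 2962 lower. The median log2 difference of the 10 members was -0.44, and the median over all genes was close to 0. The members' median includes Mmp10, whose low T-PNU values were known beforehand, so it is a description without a test. T-DM1 and untreated libraries differed in 2 of 10 members, both higher, against 6.27% of all genes. Without the 4 omitted libraries 2 of 10 were again called, but Mmp9 was higher and Mmp12 lower (-0.80, limma adjusted p = 0.0364). Mmp2 was then not called, and 2.01% of all genes were. Trastuzumab and untreated libraries differed in 0 of 10 against 0.259% of all genes, and T-DM1 and trastuzumab in 0 of 10 against 0.647%. For T-PNU minus trastuzumab the count was 0 of 9 against 0.00588%, or 1 gene in all. At an unadjusted p under 0.05 in limma the members were 2 of 10, 3 of 10 and 3 of 9 in these 3 comparisons, where 8.77%, 15.3% and 19.5% of all genes passed. Without the 4 omitted libraries 3 of 9 were called for T-PNU minus trastuzumab, Mmp3 (-1.12, adjusted p = 0.0115), Mmp14 (-0.47, adjusted p = 0.0189) and Timp1 (-0.97, adjusted p = 0.00722), where 4765 genes, or 28.0%, were called. For T-PNU minus T-DM1 they were then 6 of 9, with Mmp9 and Mmp14 added, against 39.9% of all genes. The T-PNU comparisons share the T-PNU libraries in which the low Mmp10 level was first seen, and the T-DM1 comparisons share the T-DM1 libraries.

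Differences between T-PNU and untreated libraries are a description for the same reason. They were -0.98 for Mmp10, -0.55 for Mmp3, -0.53 for Timp1, -0.39 for Mmp12, -0.19 for Mmp14, -0.14 for Mmp2, -0.05 for Timp2, 0.18 for Mmp13, 0.50 for Timp3 and 0.58 for Mmp9. Ranges overlapped for all 10 genes. Without T-PNU library C2 the differences of Mmp2 and Timp2 turned to 0.051 and 0.043, and without untreated B1 that of Mmp13 turned to -0.00013. Of all genes 0.188% were called over the 24 libraries, which is 32 genes, and 5279, or 31.1%, were called without the omitted ones.

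**Figure D3:**
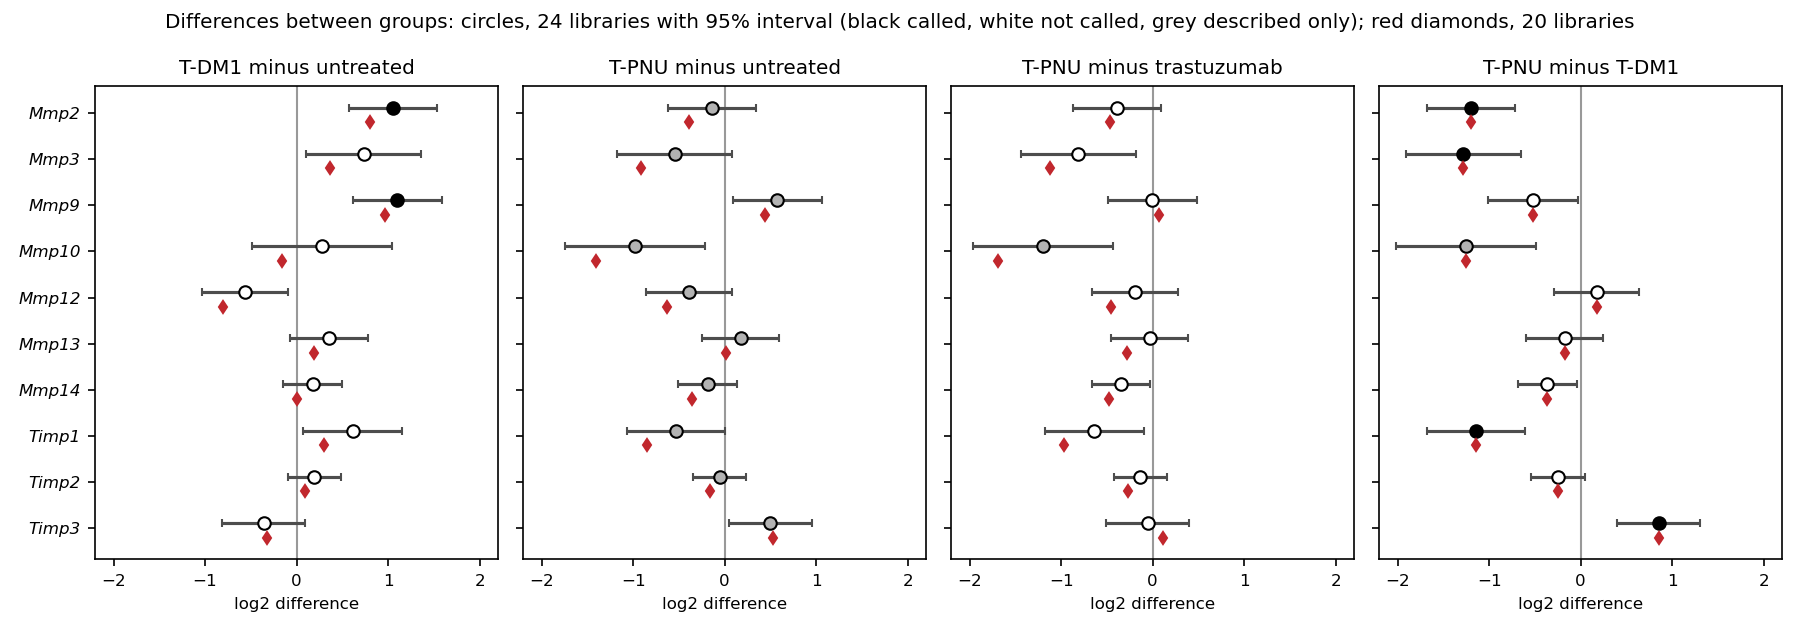
Log2 difference of each member in 4 comparisons, with circles and 95% intervals over 24 libraries and red diamonds over the 20 libraries of the heatmaps. Black circles were called, white ones were not and grey ones were not tested, and the widest gap between circle and diamond was for Mmp10, -1.20 and -1.69 in T-PNU minus trastuzumab.

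Other genes of extracellular proteolysis were read from a list of 54 (other MMPs and inhibitors, ADAM and ADAMTS proteases, the plasminogen activator system, cysteine cathepsins, and activators and inducers of MMPs), of which 47 had values. Between T-PNU and T-DM1, 14 were called lower and 8 called higher, where 29.8% of all genes were called. The median difference of the 47 was -0.01. The plasminogen activator Plat was 2.25-fold lower (log2 difference -1.17, limma adjusted p = 0.00479). Mmp28 differed by -1.12 (adjusted p = 0.00662), Mmp11, a stromelysin, by -0.99 (adjusted p = 0.00320) and Adamts5, an aggrecanase, by -0.97 (adjusted p = 0.00687). Fosl1, a Fos family subunit of AP-1, differed by -1.03 (adjusted p = 0.00473), from 12.23 to 12.84 with T-DM1 and from 10.68 to 12.09 with T-PNU. For these 5 genes, the largest differences among those called, T-PNU and T-DM1 values did not overlap.

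On the other side, the serine protease inhibitor Serpine2 was higher with T-PNU by 0.85 (limma adjusted p = 0.00888), Adam19 by 0.61 (adjusted p = 0.0451), the MMP inhibitor Reck by 0.57 (adjusted p = 0.0417) and the lysosomal protease Ctss by 0.54 (adjusted p = 0.0280). Fosl2 differed by 0.18 (adjusted p = 0.406) and the cathepsin gene Ctsk by -0.32 (adjusted p = 0.328). By group, 6 of 14 ADAM and ADAMTS genes, 3 of 6 genes of the plasminogen activator system, 3 of 10 activators and inducers and 2 of 11 other MMPs and inhibitors were called lower. Called higher were 3, 1, 0 and 2 of these, and 2 of 6 cathepsin genes, with 0 lower. The share called over all genes was 29.8%.

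Between T-DM1 and untreated libraries, 6.27% of all genes were called. Of the list, Junb rose by 0.89 (limma adjusted p = 0.0331), Adamts2 by 0.77 (adjusted p = 0.0159), Fos by 0.41 (adjusted p = 0.0490) and the urokinase receptor Plaur by 0.35 (adjusted p = 0.0468), while Adam10 fell by 0.43 (adjusted p = 0.00789). Without the 4 omitted libraries 2 of these 5 were called, Fos (0.51, adjusted p = 0.0365) and Adam10 (-0.42, adjusted p = 0.0276), against 2.01% of all genes, while Junb had an adjusted p of 0.0860, Adamts2 of 0.119 and Plaur of 0.189. The list had 0 called genes in the other 4 comparisons, with 11 of 47 at an unadjusted p under 0.05 in limma for T-PNU minus untreated, 7 for trastuzumab minus untreated, 12 for T-DM1 minus trastuzumab and 11 for T-PNU minus trastuzumab. Of all genes 24.8%, 8.77%, 15.3% and 19.5% passed that threshold. Without the 4 omitted libraries 21 of 47 were called for T-PNU minus untreated and 17 for T-PNU minus trastuzumab, where 31.1% and 28.0% of all genes were called.

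**Figure D4:**
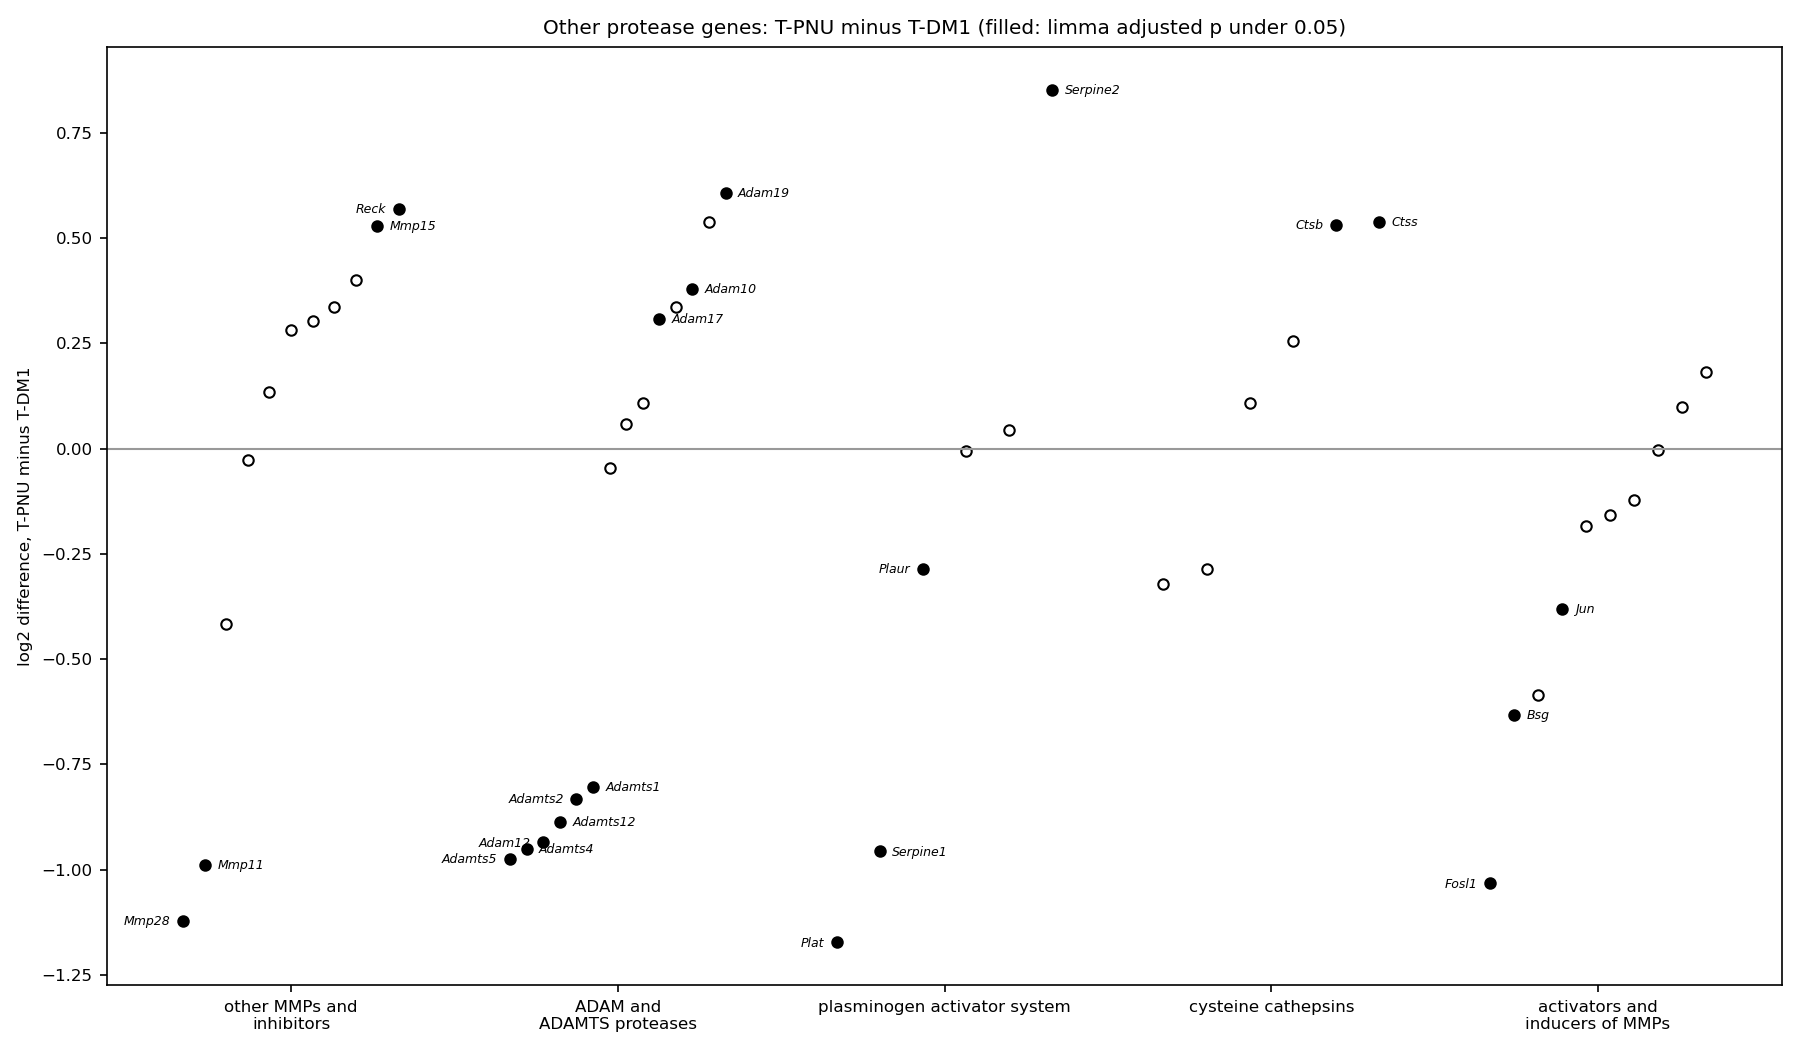
Log2 difference, T-PNU minus T-DM1, of the 47 other protease genes by list. Filled circles passed an adjusted p under 0.05, 14 below and 8 above the line at 0, where 29.8% of all genes passed.

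Marker lists of cell types were compared between the same groups. The mean deviation of 14 fibroblast and mesenchymal markers was 0.38 with T-DM1 (0.29 to 0.56), 0.21 with trastuzumab (0.05 to 0.45), -0.26 untreated (-0.60 to 0.03) and -0.32 with T-PNU (-0.94 to 0.12), so that T-DM1 and T-PNU libraries did not overlap. Of these markers 8 of 14 were called lower with T-PNU than with T-DM1 and 0 higher, where 29.8% of all genes were called. Among the 8 was Col1a2 (-1.36, limma adjusted p = 0.00226). With T-DM1, 4 were called higher than untreated, where 6.27% of all genes were called. Without the 4 omitted libraries 1 of these 4 was called, Dcn (adjusted p = 0.0238), where 2.01% of all genes were called. Col1a1, Col3a1 and Col5a1 were not called (adjusted p = 0.0808, 0.120 and 0.200). Of 10 macrophage and monocyte markers, 1 was called higher and 1 lower with T-DM1 than untreated, with a median difference of -0.42. Without the 4 omitted libraries 4 of these 10 were called. The neutrophil, endothelial, epithelial, T cell and B cell lists had 0 called between T-DM1 and untreated in either set of libraries. Ptprc was higher with T-PNU than T-DM1 by 0.76 (limma adjusted p = 0.00569). In the same comparison 5 of 10 macrophage and monocyte markers and 5 of 6 endothelial markers were called higher, and 0 lower in either list. Neutrophil markers were called higher for 2 of 8 genes, against 29.8% of all genes called in either direction. T cell and B cell markers were called for 0 of 8 and 0 of 6, with 4 and 0 at an unadjusted p under 0.05 in limma, which 42.9% of all genes passed, and medians of 0.94 and 1.02. Of 9 epithelial and tumor cell markers, 3 were called higher and 2 called lower. Without the 4 omitted libraries the T-PNU minus T-DM1 counts of called markers were 4 of 8 for T cells and 4 of 8 for neutrophils. They were 7 of 10 for macrophages and monocytes and 9 of 14 for the fibroblast and mesenchymal list. Of these 9, 8 were lower and Thy1 was higher. Thy1 is also expressed by mouse T cells, so its rise cannot be read as a fibroblast change. The mean deviations of that list include Thy1. Counts of the endothelial, epithelial and B cell lists were 5, 5 and 0. Of all genes 39.9% were called in that comparison without the omitted libraries. By library, B cell markers deviated by 1.92 in untreated B1, 1.99 in T-PNU C2 and 2.23 in T-PNU H1. Each of these was among the 4 lowest libraries for 6 members. Trastuzumab E2, at 2.25, was so for 4. T cell deviations of these libraries were also positive. Other libraries did not follow this: untreated C1 (-0.97) was low for 4 members, trastuzumab B3 (1.95) for 1 and T-DM1 G3 (1.38) for 0. The part of any listed cell type in the MMP and TIMP differences was not tested, by group or by library.

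**Figure D5:**
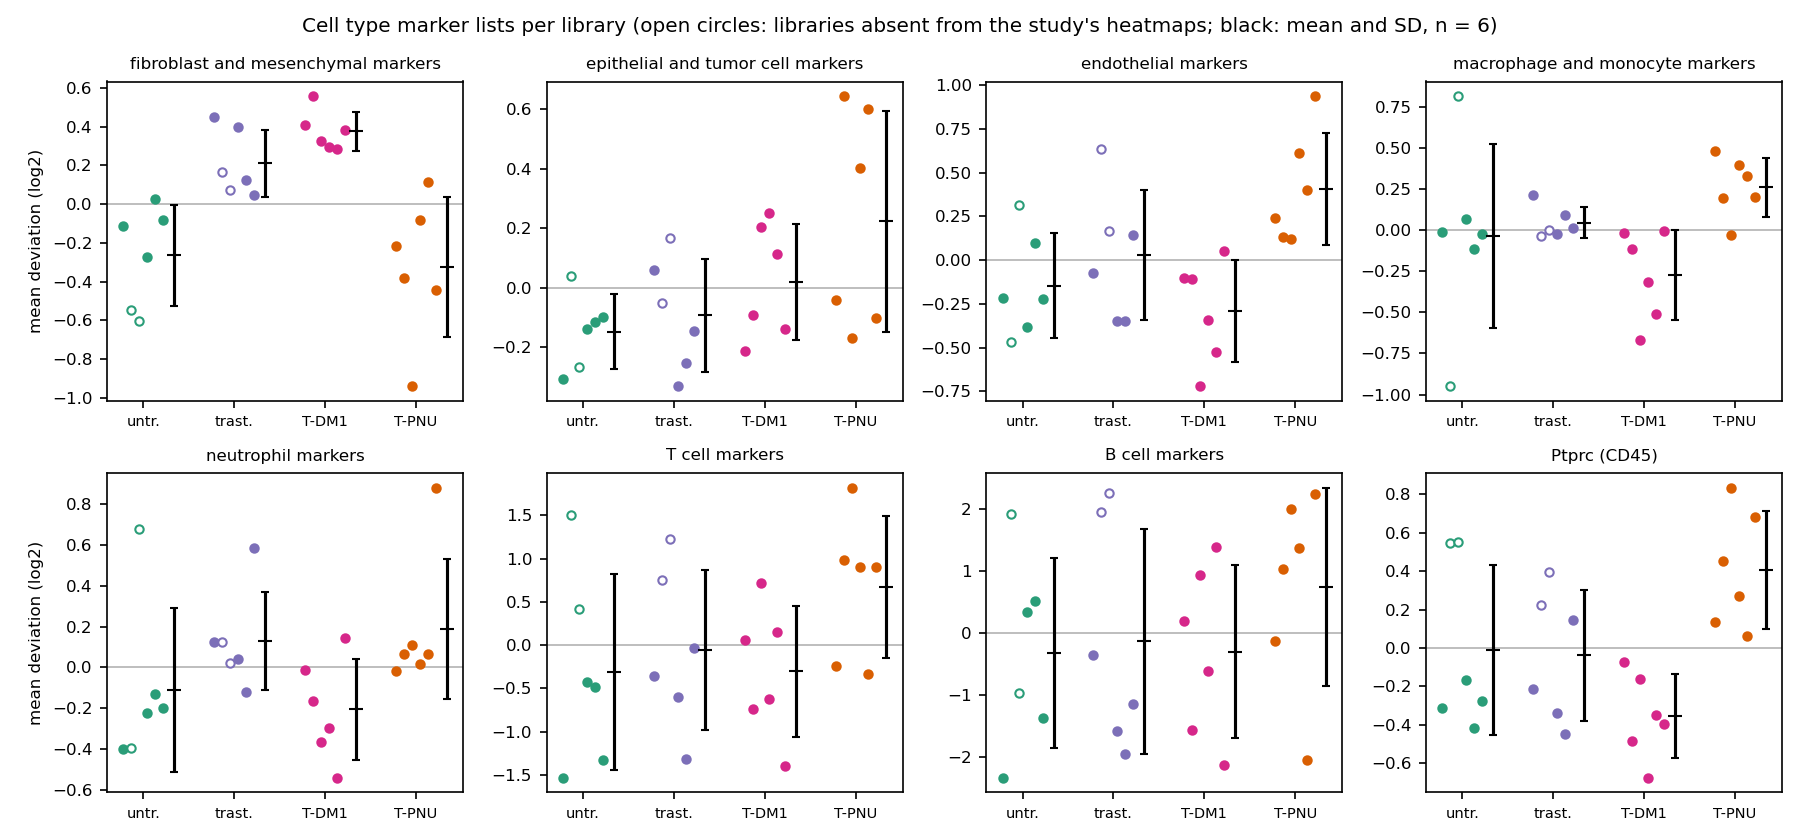
Mean deviation of each marker list from its average over 24 libraries (log2, vertical axis), for each library (circles) and as mean and SD by group (black). Fibroblast markers of T-DM1 libraries lay between 0.29 and 0.56, above every T-PNU library.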

How the data were processed

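RNA-seq values of 24 libraries from CD45+ bead-enriched tumor cells were analysed. Per the labels and the study's methods, reads were aligned to mm10 with STAR 2.4.2a, counted by strand with featureCounts of Subread 1.5.0 and filtered for low counts. The deposited values are log2 expression that the authors normalized for library size, for 16996 genes from 1.13 to 19.7, and the transformation is not named in the sources used here. Counts could not be recovered, so depth is unknown. Groups were taken from the labels, and 0 columns were left out. Nothing states that tumors were pooled, and each library is read as 1 mouse.

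Linear models were fitted to all 4 groups with limma 3.58.1 in R 4.3.3 (trended empirical Bayes, 20 residual degrees of freedom, no covariate), with Benjamini-Hochberg adjustment over all genes and a call at an adjusted p under 0.05. The members and the lists were chosen with earlier results of these data known. Named genes were all members, at most 5 called genes of the protease list per comparison by size, the extremes of each list between T-PNU and T-DM1, the highest and lowest marker of each list, and the 3 genes most like each member. Likeness is the root mean square difference of centred values over the 24 libraries. Positions were from GENCODE M21 and promoters from RefSeq. Steps were checked on simulated data, and figures drawn with Python 3.11.15 and matplotlib 3.10.9. Alternatives were the 20 libraries of the heatmaps, quantile normalization, only genes whose mean exceeded the median gene, fits of 2 groups, sample weights, an adjusted p under 0.01 with a fold above 2, exact permutation tests, and each library left out in turn.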

Additional observations from a re-analysis of the deposited data

Results flagged for a closer look

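Untreated library B1 stood apart from the other 5 untreated libraries in Mmp14, at 12.7 against 13.4 in the nearest, and in Timp2, at 12.7 against 13.3. Its gap to the nearest library took 0.676 and 0.787 of the range of the group, above the critical value of Dixon's test for 6 samples, 0.625. These were the 2 results past it among 40 combinations of gene and group, where chance passes about 1 in 20. B1 was among the 4 lowest of the 24 libraries for 6 of the 10 members and is 1 of the 4 libraries that the study's heatmaps omit. Its mean deviation in B cell markers was 1.92, and the bearing of this on its low values was not tested. Without B1 the Mmp14 difference of T-DM1 from untreated went from 0.18 to 0.04, and that of Timp2 from 0.20 to 0.10.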

How the results depend on the processing

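Of 11 counts of called genes, 7 moved by over 1.5 times with sample weights and 4 without the libraries that the heatmaps omit. Without these libraries the members called were 3 for T-PNU minus trastuzumab, and the other protease genes called were 21 for T-PNU minus untreated, 2 for T-DM1 minus untreated and 17 for T-PNU minus trastuzumab. With sample weights the members called were 3 for T-DM1 minus trastuzumab and 3 for T-PNU minus trastuzumab, and the other protease genes were 21 for T-PNU minus untreated, 16 for T-DM1 minus untreated, 1 for trastuzumab minus untreated, 7 for T-DM1 minus trastuzumab and 8 for T-PNU minus trastuzumab. With fits of only the 2 groups, the members were 2 for T-DM1 minus trastuzumab and the other protease genes 3 for T-DM1 minus untreated and 3 for T-DM1 minus trastuzumab. Among genes with a mean above the median, 13 other protease genes were called for T-PNU minus T-DM1. At an adjusted p under 0.01 and a fold above 2, 0 members and 0 other protease genes were called for T-DM1 minus untreated, and 3 other protease genes for T-PNU minus T-DM1. Quantile normalization changed no member's call. Shares of all genes called are given above for the fits without the omitted libraries. They are not given for the other settings here, or with 1 library left out. Counts under those settings therefore cannot be read as particular to these genes.

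Signs that reversed belonged to differences that were not called. Without the 4 libraries they were Mmp10 at -0.15 for T-DM1 minus untreated, Mmp10 (-0.43), Mmp13 (-0.10), Mmp14 (-0.11) and Timp2 (-0.027) for T-DM1 minus trastuzumab, and Mmp9 (0.064) and Timp3 (0.11) for T-PNU minus trastuzumab. With sample weights they were Mmp10 (-0.20), Mmp13 (-0.00480) and Mmp14 (-0.00145) for T-DM1 minus trastuzumab, and Mmp9 (0.17) and Timp3 (0.011) for T-PNU minus trastuzumab. The cause was not tested.

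With 1 library left out, members called ranged from 0 to 1 for T-DM1 minus trastuzumab, 2 to 3 for T-DM1 minus untreated, 4 to 5 for T-PNU minus T-DM1 and 0 to 0 for the other 2. For T-DM1 minus trastuzumab, Mmp10 ranged from -0.22 to 0.22, Mmp13 from -0.0064 to 0.22 and Mmp14 from -0.050 to 0.090. For T-PNU minus trastuzumab, Mmp9 ranged from -0.079 to 0.073, Mmp13 from -0.18 to 0.046 and Timp3 from -0.19 to 0.066. For trastuzumab minus untreated, Mmp10 ranged from -0.056 to 0.50, Timp1 from -0.066 to 0.27 and Timp2 from -0.016 to 0.14. No paired analysis was possible because the labels give no replicate numbers shared between groups.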

Other observations

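The genes whose centred values were closest to each member over the 24 libraries are given with their root mean square difference, which is a description, and the members themselves were left out of the search. For Mmp2 they were Scara5 (0.19), Il17rc (0.20) and Thbs2 (0.20), and for Mmp3 Il1rl1 (0.17), Ncs1 (0.21) and Dynap (0.21). Mmp9 was closest to Ctsk (0.23), Mt3 (0.23) and Acp5 (0.29), of which Ctsk and Acp5 encode a cathepsin and an acid phosphatase known from osteoclasts. Mmp10 was closest to Wnt7b (0.23), Has2 (0.25) and Sqle (0.25), Mmp12 to Plau (0.20), Cpd (0.20) and Psd3 (0.21), and Mmp13 to Lpar1 (0.16), Tlr5 (0.18) and Thbs1 (0.20). Mmp14 was closest to Sdc4 (0.09), Tmbim1 (0.10) and Ndrg1 (0.10).

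Timp1 was closest to Emp2 (0.12), Ackr3 (0.12) and Oaf (0.13), and Timp2 to Sept8 (0.08), Hs1bp3 (0.09) and Capn2 (0.10). Timp3 was closest to Ramp2 (0.19), Cd34 (0.21) and Sparcl1 (0.21). Genes with little spread, such as Timp2 with an SD of 0.25, give small differences with many genes.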
